A study of Danio rerio with 9 samples.

Results

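The anterior neural plate homeobox genes described here are *otx1a*, *otx2*, *six3a*, *six3b*, *hesx1* and *rx3*, 6 of the 41977 gene rows in the count tables, taken by their gene names. They were measured by RNA-sequencing of whole zebrafish embryos of the TE wild type strain that were dechorionated and frozen once their uninjected siblings had formed the shield, the fish organizer, at 6.75 hpf (hours after fertilization). The 3 groups were uninjected embryos, *bmp*-overexpressing embryos that had received 10 pg of *bmp2b* mRNA as zygotes, and *chordin* (*chd*)-overexpressing embryos that had received 100 pg of *chordin* mRNA. Each group had 3 samples of 10 pooled embryos. The injected mRNA is delivered to the zygote and not to a chosen tissue, and its reads cannot be told apart from those of the embryo's own *bmp2b* or *chd*. No group was injected with a control mRNA, so that injection itself and the injected message cannot be told apart. The labels number the samples of a group but do not say that they came from separate clutches, so the p-values below measure only the spread between these samples, which may be technical.

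Bone morphogenetic proteins (BMPs) are secreted ligands that are most active on the ventral side of the fish gastrula, where ectoderm becomes epidermis. Chordin, made by the dorsal organizer, binds BMP ligands and keeps them from their receptors, and ectoderm that is shielded from BMP becomes neural plate. The anterior end of the neural plate gives rise to the forebrain, the eyes and the midbrain, and homeobox transcription factors mark and build these territories. Otx proteins, relatives of *Drosophila* Orthodenticle, act in forebrain and midbrain formation, and in the fish gastrula Otx genes are also transcribed in the anterior axial mesendoderm that underlies the neural plate. Six3 proteins act in the forebrain and the eye field, Hesx1 is a homeodomain repressor of the anterior neural plate that is required for forebrain and pituitary development in the mouse, and Rx3 is needed for eye formation in zebrafish.

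In the GRCz10 assembly *otx1a* lies on chromosome 1 (50275677 to 50286298), *otx2* on chromosome 17 (44130697 to 44135966), *six3a* on chromosome 13 (10125531 to 10128908), *six3b* on chromosome 12 (25509389 to 25511981), *hesx1* on chromosome 11 (42344032 to 42345374) and *rx3* on chromosome 21 (10663636 to 10666595). None of these intervals overlapped another gene row, which bears on the counts because the libraries carried no strand information. In the RefSeq gene table of the GRCz12tu assembly the row named *otx1a* is called *otx2a* and the row named *otx2* is called *otx2b*. The names of the count tables are kept here. *otx1a* and *otx2*, and likewise *six3a* and *six3b*, are paralogs, and how reads that match both copies were counted is not given in the sources used here.

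The 9 libraries held between 8861308 and 22372856 counts. The injected messages were found where the labels place them: *bmp2b* was at 709.7 to 908.7 CPM (counts scaled to a library of 1000000) in *bmp*-overexpressing embryos against 98.7 to 116.9 CPM in uninjected embryos, and *chd* was at 1654 to 2255 CPM in *chd*-overexpressing embryos against 192.9 to 217.2 CPM in uninjected embryos. Uninjected replicate 1 stood farthest from its group, with a chi-square per degree of freedom of 32.3 and 19.6 against the other uninjected libraries, which had 13.6 between themselves. Without it the number of genes called changed from 528 to 876 for *bmp*-overexpressing and from 148 to 388 for *chd*-overexpressing against uninjected embryos. Values without this library are therefore given beside several of the member results that it moves. A gene is called here when its p-value in limma, adjusted over all genes tested, is under 0.05.

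*otx1a*, *otx2*, *six3b* and *hesx1* were lowest in *bmp*-overexpressing, intermediate in uninjected and highest in *chd*-overexpressing embryos. For each of them the ranges of the 3 groups did not overlap. For *six3b* the gaps were only from 0.318 to 0.328 CPM and from 6.21 to 6.42 CPM, and *hesx1* was called in no comparison. The share of all genes with this order was not counted. By pair, 9.03% of genes tested were lower in all *bmp*-overexpressing than in all uninjected libraries. In *chd*-overexpressing against uninjected libraries 7.23% were higher in the same way. *otx1a* and *otx2* fell in *bmp*-overexpressing embryos, and *otx1a* rose in *chd*-overexpressing embryos. The call of *otx2* was weaker than that of *otx1a*: it was lost in most fits that left out a library. *otx2* also entered that test through its uninjected libraries alone. The ranges of *six3a* were separate between *bmp*- and *chd*-overexpressing embryos only, and *rx3* was near 1 CPM in all groups. In whole-embryo RNA, fewer cells expressing a gene and less RNA per cell cannot be told apart.

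**Figure D1:**
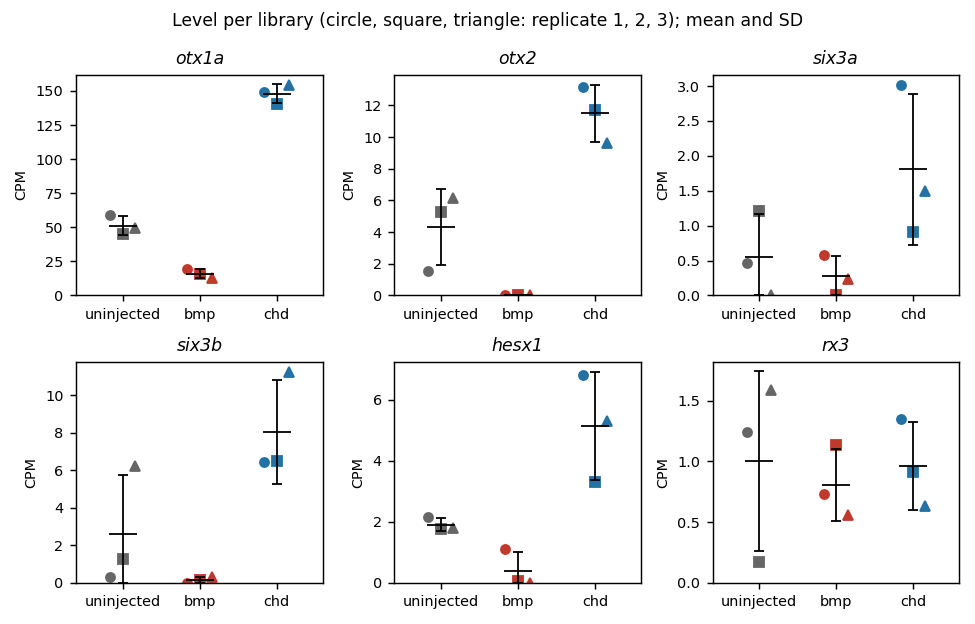
Level of each gene in CPM (linear axis from 0) in the 3 libraries of each group. Symbols are libraries, horizontal bars are means and error bars are 1 SD, drawn no lower than 0. *otx1a* has 3 separate bands at 12.9 to 19.5, 45.3 to 58.9 and 140.4 to 154.3 CPM, *otx2* is at 0 in all *bmp*-overexpressing libraries, and the groups of *rx3* lie over each other.

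*otx1a* was the best measured of the 6 genes, with 162 to 2682 counts per library. Its level was 58.9, 45.3 and 49.4 CPM in the replicates without injection, 19.5, 15.4 and 12.9 CPM in the *bmp*-overexpressing replicates and 149.0, 140.4 and 154.3 CPM in the *chd*-overexpressing replicates. The ranges did not overlap in any pair of groups. Group means were 51.2 ± 7.0, 15.9 ± 3.4 and 147.9 ± 7.0 CPM (SD, n = 3 each).

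The fall of *otx1a* in *bmp*-overexpressing embryos was 3.16-fold (log2 fold change -1.66, SE 0.218, limma adjusted p = 2.04e-06). Its rise in *chd*-overexpressing embryos was 2.96-fold (log2 fold change 1.56, SE 0.134, limma adjusted p = 7.5e-09). The injected groups differed from each other 9.38-fold (log2 fold change -3.23, SE 0.189, limma adjusted p = 4.84e-14), a value that uses the same libraries as the other comparisons and is no further support for them. An exact two-sided permutation test over the libraries gave p = 0.1 for each comparison, which is the smallest p that 3 against 3 libraries allow. *otx1a* was called in all 3 comparisons under each of the 12 alternative settings.

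*otx2* was the gene with the clearest absence. It had 24, 122 and 85 counts in uninjected replicates 1 to 3, no count in any *bmp*-overexpressing library and 166, 103 and 167 counts in the *chd*-overexpressing libraries. The corresponding levels were 1.57, 5.25 and 6.14 CPM without injection and 13.2, 11.7 and 9.61 CPM in *chd*-overexpressing embryos. Uninjected replicate 1 was the lowest of its group, and the groups did not overlap.

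The 3 *bmp*-overexpressing libraries had 0 *otx2* counts. Set at a limit of 3 counts over the group, or 0.0728 CPM, *otx2* was 59.4-fold below its uninjected mean. It was 158-fold below its *chd*-overexpressing mean by the same limit. These ratios leave out the error of the means and are not lower bounds. Exact lower bounds on pooled counts were 48.9-fold against uninjected and 125-fold against *chd*-overexpressing embryos. These bounds cover counting error only, since reads amplified without molecular identifiers are not independent molecules. The limma intervals reached down to 9.1-fold and 34.8-fold. In both comparisons *otx2* entered the test through the libraries of the other group alone. The fit called the fall against uninjected embryos (limma adjusted p = 0.0202). That call was lost without uninjected replicate 2 (limma adjusted p = 0.0619), without uninjected replicate 3 (limma adjusted p = 0.0591) and without *bmp*-overexpressing replicate 1, 2 or 3 (limma adjusted p = 0.25, 0.25 and 0.219). The fitted log2 fold changes of these 5 fits were -6.79 to -6.38, beside -6.73 with all libraries. Without uninjected replicate 1 it held (limma adjusted p = 0.00872). The difference from *chd*-overexpressing embryos was called (limma adjusted p = 0.000431) and stayed called under all 12 alternatives, with a highest adjusted p of 0.0247.

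Between *chd*-overexpressing embryos, at 11.5 ± 1.8 CPM, and uninjected embryos, at 4.32 ± 2.42 CPM (SD, n = 3 each), *otx2* had a log2 fold change of 1.53 (SE 0.413, limma adjusted p = 0.0808). This did not pass the test, although all *chd*-overexpressing libraries lay above all uninjected ones. Without uninjected replicate 1 the log2 fold change was 1.00 (limma adjusted p = 0.169).

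*six3b* was at or near the detection limit in *bmp*-overexpressing embryos, with 0, 2 and 4 counts. Uninjected replicates 1 to 3 had 5, 30 and 86 counts and *chd*-overexpressing replicates 1 to 3 had 81, 57 and 195 counts. Scaled to CPM, the uninjected libraries were at 0.328, 1.29 and 6.21, the *bmp*-overexpressing ones at 0, 0.133 and 0.318 and the *chd*-overexpressing ones at 6.42, 6.48 and 11.2. No ranges overlapped, but the margin was narrow on both sides of the uninjected group: its lowest library, at 0.328 CPM, was next to the highest *bmp*-overexpressing one, at 0.318 CPM, and its highest, at 6.21 CPM, was next to the lowest *chd*-overexpressing one, at 6.42 CPM.

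The uninjected libraries of *six3b* thus spanned 18.9-fold, the widest span among the members that were counted in every uninjected library. Over the pooled counts of each group *six3b* was 15.9-fold lower in *bmp*-overexpressing than in uninjected embryos, with a 95% counting interval of 7.09 to 44.1, which leaves out the spread between libraries. Uninjected replicate 3 held 86 of the 121 uninjected counts, and without it the fold was 6.25 (2.601 to 18.2), whereas without *bmp*-overexpressing replicate 1 or 3 it was 10.6 and 33.1. Too few libraries reached the low-count limit for *six3b* to enter the test of this comparison. With the limit removed its log2 fold change was -3.39 and did not pass (limma adjusted p = 0.211).

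*six3b* was lower in *bmp*- than in *chd*-overexpressing embryos with a log2 fold change of -5.99 (SE 1.602, limma adjusted p = 0.02), over pooled counts of 6 and 333. This call was lost without *bmp*-overexpressing replicate 1, 2 or 3 (limma adjusted p = 0.117, 0.166 and 0.091; log2 fold change -5.12, -6.17 and -6.72) and without *chd*-overexpressing replicate 2 or 3 (limma adjusted p = 0.0529 and 0.0816). In *chd*-overexpressing against uninjected embryos the log2 fold change was 2.61 (SE 0.658, limma adjusted p = 0.0511), just outside the threshold. It was 1.81 and called without uninjected replicate 1 (limma adjusted p = 0.0344), and it was also called without *chd*-overexpressing replicate 1 (limma adjusted p = 0.03) or 2 (limma adjusted p = 0.0493). It was 3.37 and not called without uninjected replicate 3 (limma adjusted p = 0.172), nor was it called without uninjected replicate 2 (limma adjusted p = 0.118) or *chd*-overexpressing replicate 3 (limma adjusted p = 0.187).

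*six3a*, the paralog of *six3b*, had fewer counts. There were 7, 28 and 0 counts in uninjected, 8, 0 and 3 in *bmp*-overexpressing and 38, 8 and 26 in *chd*-overexpressing replicates 1 to 3, or 0.459, 1.20 and 0 CPM, 0.586, 0 and 0.239 CPM, and 3.01, 0.909 and 1.496 CPM. The *chd*-overexpressing libraries lay above all *bmp*-overexpressing ones, whereas the uninjected range overlapped both. The log2 fold change was 2.28 in *chd*-overexpressing against uninjected embryos (95% interval -0.53 to 5.09, limma adjusted p = 0.653) and -3.32 in *bmp*- against *chd*-overexpressing embryos (95% interval -6.67 to 0.04, limma adjusted p = 0.355). *six3a* was not tested in *bmp*-overexpressing against uninjected embryos, where the pooled counts of 11 and 35 gave a level 2.51-fold lower with a counting interval of 1.24 to 5.47. This direction rested on uninjected replicate 2, without which the uninjected level was 0.902 times that of *bmp*-overexpressing embryos (0.297 to 2.55), and without *bmp*-overexpressing replicate 1 it was 6.14 times (1.94 to 31.2). At this depth no change of *six3a* was detectable by the test.

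*hesx1* was even in uninjected embryos and uneven in the injected groups. The uninjected libraries had 33, 41 and 25 counts, or 2.165, 1.76 and 1.80 CPM, and the *chd*-overexpressing libraries had 86, 29 and 92 counts, or 6.82, 3.30 and 5.29 CPM. The *bmp*-overexpressing libraries had 15, 1 and 0 counts, or 1.10, 0.0666 and 0 CPM, so that replicate 1 carried nearly all counts of its group. All 3 groups were separate, the means being 1.91 ± 0.22 CPM without injection, 0.388 ± 0.616 CPM under *bmp* and 5.14 ± 1.77 CPM under *chordin* (SD, n = 3 each).

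None of the *hesx1* differences passed the test. The log2 fold change was -3.52 in *bmp*-overexpressing against uninjected embryos (SE 1.65, limma adjusted p = 0.354) and 1.45 in *chd*-overexpressing against uninjected embryos (SE 0.53, limma adjusted p = 0.307). Between the injected groups it was -4.97 (SE 1.611, limma adjusted p = 0.0747), and this was called in 4 of the 12 alternatives, among them the fit without a low-count limit (limma adjusted p = 0.00511). Single libraries moved these values: against uninjected embryos the log2 fold change was -4.92 without *bmp*-overexpressing replicate 1 and -2.57 without replicate 3, and against *chd*-overexpressing embryos it was -6.36 and -4.02. By pooled counts *hesx1* was 4.87-fold lower in *bmp*-overexpressing than in uninjected embryos, with a counting interval of 2.86 to 8.86. Without *bmp*-overexpressing replicate 1 the remaining count of 1 gave a ratio of 52.2 with an interval of 9.15 to 2080. Without *bmp*-overexpressing replicate 2 or 3 the ratio was smaller, at 3.31 (1.91 to 6.13) and 3.39 (1.99 to 6.16).

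*rx3* showed no difference that could be detected. It had 19, 4 and 22 counts in uninjected, 10, 17 and 7 in *bmp*-overexpressing and 17, 8 and 11 in *chd*-overexpressing libraries, and uninjected replicates 1 and 3, at 1.25 and 1.59 CPM, and replicate 2, at 0.172 CPM, spanned the values of both injected groups. Group means were 1.00 ± 0.74, 0.807 ± 0.295 and 0.964 ± 0.361 CPM (SD, n = 3 each). The 95% intervals of the log2 fold change were -1.85 to 2.89 for *bmp*-overexpressing and -1.60 to 2.92 for *chd*-overexpressing against uninjected embryos, so that changes of several-fold in either direction are within the error. Over pooled counts the level in *bmp*-overexpressing embryos was 1.04-fold lower with a counting interval of 0.653 to 1.68. Without uninjected replicate 2 it was 1.71-fold lower (1.06 to 2.78), and without uninjected replicate 3 the uninjected level was 0.725 times that of *bmp*-overexpressing embryos (0.407 to 1.27). Without uninjected replicate 1 the uninjected level was 0.850 times that of *bmp*-overexpressing embryos (0.490 to 1.46).

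**Figure D2:**
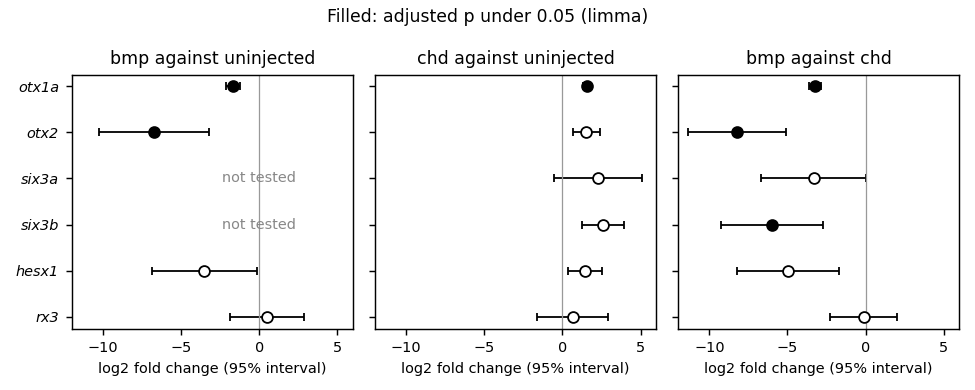
Log2 fold change of each gene (point) with its 95% interval (bar) from limma in the 3 comparisons, with filled points for an adjusted p under 0.05. The intervals of *otx1a* are the narrowest, those of genes with counts of 0 in a group are several log2 units wide, and *six3a* and *six3b* were not tested in *bmp*-overexpressing against uninjected embryos.

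Counted over the 6 genes, 2 were called lower in *bmp*-overexpressing than in uninjected embryos (*otx1a* and *otx2*), 2 were tested and not called (*hesx1* and *rx3*) and 2 were not tested, where 1.43% of the 16779 genes tested were called lower and 1.72% higher. *hesx1* had an unadjusted limma p of 0.0407. *otx2* entered this test through its uninjected libraries alone, so its inclusion already required a difference. In *chd*-overexpressing against uninjected embryos 1 of the 6 was called higher (*otx1a*), against 0.591% of the 16590 genes tested (0.301% were called lower), and the other 5 did not pass, *otx2*, *six3a*, *six3b* and *hesx1* with higher means than in uninjected embryos and *rx3* with a slightly lower mean (0.964 against 1.00 CPM) and a positive fitted value of 0.66. In *bmp*- against *chd*-overexpressing embryos 3 were called lower (*otx1a*, *otx2* and *six3b*), against 2.85% of 16735 genes (2.19% were called higher), and *otx2*, *six3a* and *six3b* entered through the *chd*-overexpressing libraries alone.

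By range, 3 of the 4 members tested (*otx1a*, *otx2* and *hesx1*) were below the uninjected libraries in all *bmp*-overexpressing ones, where 9.03% of tested genes were, and so, untested and by 0.318 against 0.328 CPM, was *six3b*. In *chd*-overexpressing embryos 4 of the 6 (*otx1a*, *otx2*, *six3b* and *hesx1*) were above the uninjected libraries in all libraries, where 7.23% were. Between the injected groups 5 of the 6, all but *rx3*, were lower in every *bmp*-overexpressing library, against 9.87% of tested genes. *otx2*, *six3a* and *six3b* reached the low-count limit of this comparison in *chd*-overexpressing libraries alone, and *otx2* reached that of the first comparison in uninjected libraries alone. The members were also chosen with earlier results of these data known, so the shares are given for scale and are no test of the members.

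**Figure D3:**
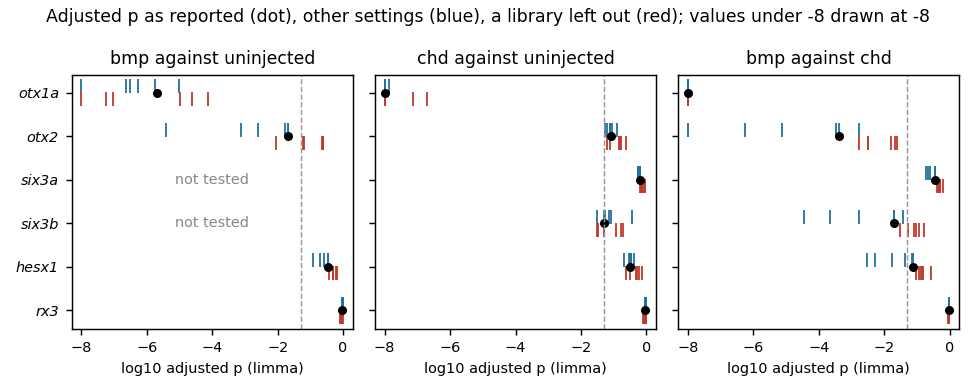
Limma adjusted p on a log10 axis for each gene and comparison: the reported value (dot), other processing settings (blue ticks) and fits with a library left out (red ticks), with the threshold of 0.05 dashed and values under -8 drawn at -8. *otx1a* stays left of the threshold throughout, *otx2* crosses it in *bmp*-overexpressing against uninjected embryos when a library is left out, and *six3b* straddles it in both comparisons in which it was tested.

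The levels of both Otx members under BMP were also set against each other. In *bmp*-overexpressing embryos *otx1a* kept 31.1 ± 6.6% of its uninjected mean (SD, n = 3), and *otx2* had no count. Expressed within each library, there were 2.67, 11.6 and 12.4 *otx2* counts per 100 *otx1a* counts in uninjected replicates 1 to 3, 0 in each *bmp*-overexpressing library and 8.83, 8.34 and 6.23 in the *chd*-overexpressing libraries. The *bmp*-overexpressing ratios were thus below all others, and the uninjected and *chd*-overexpressing ratios overlapped through uninjected replicate 1 alone, the other uninjected ratios being above all *chd*-overexpressing ones. Exact permutation tests of these ratios, which cannot go below p = 0.1 with 3 against 3 libraries, are given with those of *otx1b*.

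*otx1b*, another Otx gene and named *otx1* in RefSeq, was compared with them in the same way, a comparison chosen after its values were seen. Its level was 23.5, 25.6 and 15.4 CPM in the uninjected libraries, 16.1, 15.3 and 16.6 CPM under *bmp* and 56.5, 46.5 and 54.7 CPM under *chordin*. The first 2 groups overlapped, and the log2 fold change between them was -0.43 with a 95% interval of -0.92 to 0.06 (limma adjusted p = 0.474). In *chd*-overexpressing embryos *otx1b* rose (log2 fold change 1.29, SE 0.196, limma adjusted p = 0.000185).

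The ratio of *otx1b* to *otx1a* counts was highest in *bmp*-overexpressing embryos. There were 39.98, 56.5 and 31.1 *otx1b* counts per 100 *otx1a* counts in uninjected libraries, 82.4, 99.6 and 129.0 in *bmp*-overexpressing libraries and 38.0, 33.1 and 35.5 in *chd*-overexpressing libraries. Of 6 such ratio comparisons, the 4 that involve *bmp*-overexpressing embryos had no overlap and an exact two-sided permutation p of 0.1, the smallest possible (0.15 after Benjamini-Hochberg adjustment). For *otx2* this outcome was fixed by its 0 counts in these embryos, and *otx1b* was chosen after its values were seen. None of the 4 is therefore further support. The *otx2* and *otx1b* ratios of *chd*-overexpressing and uninjected embryos gave exact permutation p-values of 0.8 and 0.5. Under *chordin* these 3 Otx genes stood at 288.9 ± 13.7% (*otx1a*), 266.1 ± 41.4% (*otx2*) and 244.5 ± 24.9% (*otx1b*) of their uninjected means (SD, n = 3 each).

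**Figure D4:**
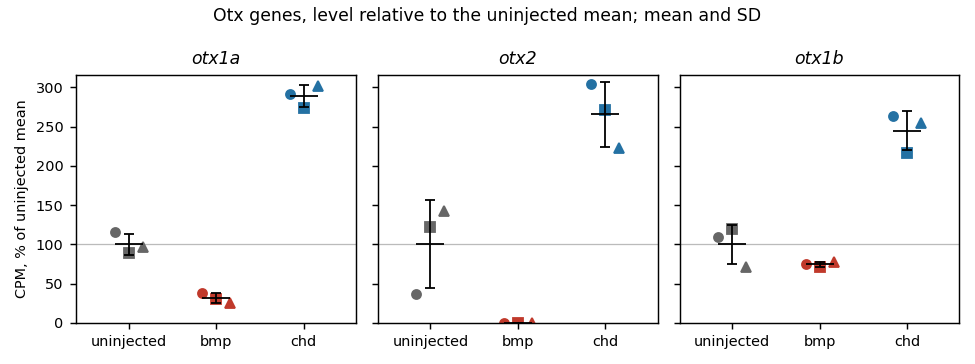
Level of *otx1a*, *otx2* and *otx1b* in each library as a percentage of the gene's uninjected mean (linear axis from 0, grey line at 100%), with bars for the mean and 1 SD, drawn no lower than 0. The *chd*-overexpressing libraries of all 3 genes lie at 216.2% or more, while the *bmp*-overexpressing libraries lie at 25.2 to 38.2% for *otx1a*, at 0 for *otx2* and at 71.2 to 77.4% for *otx1b*.

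The wider set of anterior neural and eye field genes was mostly scarce at this stage. Of 30 listed genes 29 were in the tables, and 13 of these were tested in no comparison. Among them *nkx2.1* and *fezf1*, markers of the ventral and the anterior forebrain, had no count in any uninjected or *bmp*-overexpressing library. The other 16 were tested in at least 1 comparison and 11 of them in all 3, which gave 14 genes in each comparison. Of these, 1 rose and 3 fell in *bmp*-overexpressing embryos, 3 rose and 0 fell in *chd*-overexpressing embryos, and 0 were higher and 5 lower in *bmp*- than in *chd*-overexpressing embryos. Their median log2 fold changes were -0.56, 0.79 and -1.30. At an unadjusted limma p under 0.05 the counts of 0 stayed 0, while 6 of 14 were higher under *chordin*. Over all genes tested, 1.72% were called higher and 1.43% lower under *bmp*, and 0.591% and 0.301% under *chordin*. Between the injected groups 2.19% were called higher and 2.85% lower in *bmp*-overexpressing embryos. The medians over all genes tested were 0.01, 0.0 and 0.01. These shares and medians also give the scale for the lists below.

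The genes that fell with *otx1a* and *otx2* in *bmp*-overexpressing embryos were *sfrp1a*, which encodes a secreted Wnt antagonist, and *tcf7l1a* and *tcf7l1b*, which encode transcriptional repressors of Wnt targets that are needed for head formation in zebrafish. *sfrp1a* was at 34.4 ± 1.4 CPM without injection, 10.1 ± 2.5 CPM under *bmp* and 63.6 ± 8.8 CPM under *chordin* (SD, n = 3 each). It fell under *bmp* (log2 fold change -1.77, limma adjusted p = 1.02e-05) and rose under *chordin* (log2 fold change 0.85, limma adjusted p = 0.00385). *otx1a* and *sfrp1a* were the genes of both lists called in opposite directions in the injected groups.

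*tcf7l1a* fell from 73.8 ± 3.3 to 45.4 ± 5.4 CPM in *bmp*-overexpressing embryos (log2 fold change -0.68, limma adjusted p = 0.0042), and *tcf7l1b* fell from 52.9 ± 6.9 to 31.3 ± 3.3 CPM (log2 fold change -0.77, limma adjusted p = 0.00566). Under *chordin* neither passed, with 95% intervals of the log2 fold change of 0.09 to 0.62 for *tcf7l1a* and -0.19 to 0.43 for *tcf7l1b*. *cyp26a1*, whose product degrades retinoic acid, rose in both injected groups, from 76.2 ± 11.3 CPM to 145.2 ± 19.4 CPM under *bmp* (log2 fold change 0.94, limma adjusted p = 8.31e-06) and to 126.0 ± 8.9 CPM under *chordin* (log2 fold change 0.73, limma adjusted p = 0.00217). *six7*, a relative of the Six3 genes, had 25, 99 and 38 counts in uninjected, 11, 5 and 2 in *bmp*-overexpressing and 90, 44 and 169 in *chd*-overexpressing libraries, and was called only between the injected groups (log2 fold change -4.24, limma adjusted p = 0.0236).

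**Figure D5:**
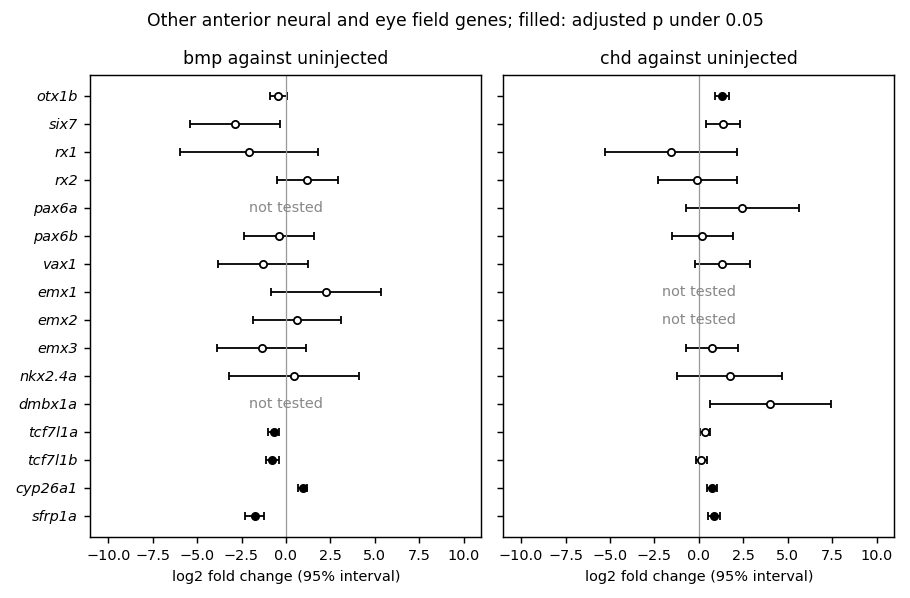
Log2 fold change (point) with its 95% interval (bar) of the listed anterior neural and eye field genes tested in *bmp*- or *chd*-overexpressing against uninjected embryos, with filled points for a limma adjusted p under 0.05. *tcf7l1a*, *tcf7l1b* and *sfrp1a* are filled to the left and *cyp26a1* to the right of 0 under *bmp*, *otx1b*, *cyp26a1* and *sfrp1a* are filled to the right of 0 under *chordin*, and the scarcer genes have wide intervals that are not filled.

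The tested genes of the boundary, hindbrain and posterior list did not follow the Otx genes as a group. Of 8 tested, 3 rose and 0 fell in *bmp*-overexpressing embryos (median log2 fold change 0.85, 3 and 1 at an unadjusted limma p under 0.05). In *chd*-overexpressing embryos 1 rose and 1 fell (median 0.48). Those that rose under *bmp* were *cdx4*, *cdx1a* and *fgf8a*. The paper places *cdx4* at the margin at shield stage. Whether the RNA of these genes came from neural tissue was not tested. Scarcer genes of the list, among them *pax2a*, *eng2a*, *egr2b*, *hoxb1a* and *wnt1*, were tested in no comparison. *cdx4*, a posterior homeobox gene that is also a BMP target in mesoderm, stood at 89.0 ± 5.9 CPM without injection, 243.5 ± 24.2 CPM under *bmp* and 37.1 ± 5.3 CPM under *chordin* (SD, n = 3 each), called in both directions (limma adjusted p = 5.45e-11 and 5.86e-06). *cdx1a*, its relative, rose from 4.52 ± 1.59 to 46.3 ± 5.6 CPM under *bmp* (limma adjusted p = 2.8e-09). *fgf8a*, a secreted signal of the margin and later of the midbrain-hindbrain boundary, rose under *bmp* (log2 fold change 0.71, limma adjusted p = 0.00659) and under *chordin* (log2 fold change 0.77, limma adjusted p = 0.013).

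*her5*, a hairy-related repressor of the midbrain-hindbrain boundary that is also transcribed in endoderm, had the same order as the Otx genes. Its mean was 7.41 ± 2.18 CPM without injection, 1.74 ± 0.55 CPM under *bmp* and 14.9 ± 2.0 CPM under *chordin* (SD, n = 3 each), and it was called between the injected groups (log2 fold change -3.04, limma adjusted p = 0.000253) but not against uninjected embryos (limma adjusted p = 0.0561 under *bmp* and 0.18 under *chordin*).

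Genes of the axial mesendoderm, in which Otx genes are also transcribed, were counted as well. Their list also held *sox32*, *sox17* and *cxcr4a*, which are genes of the endoderm, so its counts do not describe axial mesendoderm alone. *cxcr4a* was called lower under *bmp* (log2 fold change -0.59, limma adjusted p = 0.000138) and higher under *chordin* (log2 fold change 0.41, limma adjusted p = 0.00943). *sox32* and *sox17* were not called against uninjected embryos. Of 17 listed genes, 7 of 15 tested fell and 1 rose in *bmp*-overexpressing embryos, 9 of 16 rose and 0 fell in *chd*-overexpressing embryos (15 and 1 at an unadjusted limma p under 0.05), and 13 of 16 were lower and 1 higher in *bmp*- than in *chd*-overexpressing embryos. The summed level of the list was 1622 to 1681 CPM without injection, 1423 to 1448 CPM under *bmp* and 2142 to 2205 CPM under *chordin*. A large part of this sum was *ta* RNA, with means of 702.5, 874.7 and 633.4 CPM in the uninjected, *bmp*- and *chd*-overexpressing groups. The rise of *ta* under *bmp* hides part of the fall of the other genes in the sum. None of the 17 genes was at 0 in all libraries, which also held for *otx2*. *foxa1* had 0, 0 and 1 counts in uninjected libraries and was tested in no comparison. *gsc*, a homeobox gene of the organizer and prechordal plate, was at 50.5 ± 8.7, 13.7 ± 0.3 and 96.6 ± 7.7 CPM in the uninjected, *bmp*- and *chd*-overexpressing groups. *foxd3*, a forkhead gene of the organizer and later of the neural crest, was at 33.7 ± 9.1, 1.75 ± 1.38 and 71.3 ± 2.5 CPM (SD, n = 3 each). The summed level of the 6 members was 55.0 to 65.1, 14.0 to 22.0 and 163.7 to 182.5 CPM. Under *bmp* the gene of the list that rose was *ta*, a T-box gene of the notochord and the whole margin, from 702.5 ± 13.7 to 874.7 ± 31.5 CPM (limma adjusted p = 0.00217). The part of axial mesendoderm in the levels of *otx1a* and *otx2* was not tested.

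Of the epidermal genes, 9 of 17 tested were called higher and 2 lower in *bmp*-overexpressing embryos (median log2 fold change 0.63) and 0 of 18 higher and 7 lower in *chd*-overexpressing embryos (median -0.45), with the same counts at an unadjusted limma p under 0.05. Their summed level was 8582 to 11890 CPM without injection, 10580 to 11500 CPM under *bmp* and 8957 to 9928 CPM under *chordin*, so that the uninjected range covered both injected groups. This sum was mostly keratin RNA, with *krt4*, *krt8*, *krt18* and *krt5* at uninjected means of 2506, 2234, 1750 and 1611 CPM. It says little about the scarcer genes of the list. *gata2a* was at 115.1, 369.5 and 31.3 CPM in the uninjected, *bmp*- and *chd*-overexpressing groups, and *foxi1* was at 50.9, 163.8 and 4.36 CPM. The 2 genes called lower under *bmp* were *vent* (log2 fold change -0.96, limma adjusted p = 0.00272) and *krt5* (log2 fold change -0.44, limma adjusted p = 0.0031). The list also held the ventral homeobox repressors *vent*, *vox* and *ved*, which were among the 7 called lower under *chordin*. Of these, *ved* was called higher under *bmp*. The counts thus do not describe epidermis alone. Also in the counts and medians were *krt4*, *cyt1*, *krt8*, *krt18* and *klf17*, which were not called under *bmp* (log2 fold changes of -0.11 to 0.11). Genes expressed throughout the neural plate gave a mixed picture: 4 of 11 tested fell and 0 rose in *bmp*-overexpressing embryos (median -0.21, 6 and 1 at an unadjusted limma p under 0.05), and 2 rose and 2 fell in *chd*-overexpressing embryos (median -0.03).

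The genes most like a member in profile were sought for *otx1a* and *otx2*, the members with a mean of at least 50 counts in uninjected libraries, by the root mean square difference of log2(CPM + 0.5), each gene set to its uninjected mean, over the 9 libraries and 18002 genes. For *otx1a* these were *noto* at 0.337, *gsc* at 0.395 and *lmo4a* at 0.404 log2 units. *noto* is a homeobox gene of the notochord and *lmo4a* encodes a LIM-only protein. The first of these, *noto*, was at 50.9 ± 7.2 CPM without injection, 17.4 ± 3.1 CPM under *bmp* and 101.6 ± 10.7 CPM under *chordin* (SD, n = 3 each), a smaller rise than that of *otx1a* by log2 fold change (1.00 against 1.56, a difference that was not tested).

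For *otx2* the nearest genes included *irx1b* at 0.655 and LOC103909544 at 0.658 log2 units. *irx1b* encodes an Iroquois homeodomain factor, and it kept 29, 25 and 3 counts in the *bmp*-overexpressing libraries, where *otx2* had none. The list for *otx2* depended on the constant added before taking logarithms: with 2 CPM in place of 0.5 neither of these genes was among its nearest 3, whereas all 3 of *otx1a* were kept.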

How the data were processed

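Poly(A) RNA of 9 samples was sequenced without strand information, and the authors aligned the reads to GRCz10 (STAR 2.4.1b per the labels, which also name HTSeq and Cufflinks without a role). The authors deposited 3 tables, 1 per pair of groups, with whole-number read counts per gene, not normalized and written with digit separators, which were removed; the tables held identical counts for shared libraries. Their columns of fold changes, p-values and calls from Cuffdiff 2.1.1, edgeR 3.2.3 and also DESeq 1.12.0 were not used. Counts were scaled by trimmed means of M-values (TMM, trims of 30% and 5%, factors 0.960 to 1.04) to CPM. Differences were tested with limma 3.58.1 (voom weights; R 4.3.3) over the 6 libraries of a comparison, for genes with the CPM of 10 counts at the median depth in at least 3 libraries and 15 counts in all, with Benjamini-Hochberg adjustment over all genes tested. On simulated data for *bmp*-overexpressing against uninjected embryos (16418 genes) this recovered 49.0% of 2-fold and 74.5% of 4-fold changes. These changes were planted only in genes above a minimum mean count in uninjected libraries. *six3a* and *rx3* lay below it and *six3b* did not enter this test, so the shares do not apply to these genes. The shares are averages over genes of many levels. They do not give the chance of a call for *otx2* or *hesx1* alone. Means are given with SD, and a group's detection limit was set at 3 counts in all. Intervals on pooled counts are exact and cover counting error only.

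The members and gene lists were chosen with earlier results of these data known. Named genes were all members, every called gene of the anterior neural list, up to 4 genes of each other list by smallest adjusted p, the 3 nearest in profile (1 is not reported here), and the injected genes; other names were chosen after their values were seen. Alternatives were other normalizations, no low-count limit, all groups in one fit, limma-trend, a replicate block, a threshold of 0.01 and leaving out each library, where 2 libraries sufficed for the low-count limit. Leaving libraries out of the pooled counts was added after the data were seen. Sequences of the members were not analysed here.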

Additional observations from a re-analysis of the deposited data

How the results depend on the processing

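The 16 log2 fold changes of members were recomputed under 12 alternatives each. Of the 192 values, 168 kept their direction and side of the threshold, 10 lost and 8 gained a call and 6 changed sign. All 6 were *rx3*, which was called nowhere and had leave-one-out ranges of -0.79 to 1.00, -0.65 to 1.16 and -0.54 to 0.14 in the 3 comparisons: -0.17 (*bmp* against uninjected) and -0.10 (*chd* against uninjected) with the replicate block, -0.79 and -0.65 without uninjected replicate 2, and, between the injected groups, 0.07 without *bmp*-overexpressing replicate 3 and 0.14 without *chd*-overexpressing replicate 1. *hesx1* gained a call between the injected groups with no low-count limit, all groups in one fit (limma adjusted p = 0.043), limma-trend (0.00307) and the replicate block (0.0176). At a threshold of 0.01, 1 member was called lower in *bmp*-overexpressing than in uninjected embryos, 88 genes were called in *chd*-overexpressing against uninjected embryos (61 higher and 27 lower), and 557 between the injected groups, 313 of them lower. With all groups in one fit 2 members were called higher in *chd*-overexpressing embryos.

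Leaving out 1 library each moved the genes called from 371 to 876 (lower 162 to 445; members lower 1 to 2) in *bmp*-overexpressing against uninjected embryos, from 110 to 388 (higher 76 to 242; lower 27 to 146; members higher 1 to 2) in *chd*-overexpressing against uninjected embryos, and from 645 to 841 (higher 223 to 380) between the injected groups. The cause was not tested. Same-numbered samples of different groups did not deviate together (correlations of -0.008 to 0.056), so the numbers were not taken as pairs. The replicate block called 712, 333 (212 higher and 121 lower) and 1015 genes in the 3 comparisons. The block took *six3b* in *chd*-overexpressing against uninjected embryos to a log2 fold change of 1.60 (limma adjusted p = 0.353). *six3a*, *six3b*, *hesx1* and *rx3* had 0 to 195 counts per library, and whether greater depth would change their calls was not tested.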
